A study of Mus musculus with 12 samples.

Results

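The 10 growth factor genes described here, all linked to tissue repair, were followed through a coculture of lymphocytes and granulocytes: Areg, Hbegf, Ereg, Tgfa, Tgfb1, Pdgfb, Vegfa, Vegfb, Csf1 and Igf1. They were chosen by name, as 10 of the 49315 genes in the table, and all 10 have a row in it. The cells were group 2 innate lymphoid cells (ILC2s), lymphocytes without antigen receptors that reside in tissue, and eosinophils, granulocytes of type 2 immunity, all from C57BL/6 mice. RNA was sequenced in 12 libraries, 3 in each of 4 groups: ILC2s cultured with eosinophils, ILC2s cultured alone, eosinophils cultured with ILC2s, and eosinophils cultured alone.

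Lung ILC2s had been expanded in IL-33, IL-25, IL-2 and IL-7 and rested for 48 h in IL-2 and IL-7. Blood eosinophils, the cells left after bead removal of B220 and CD90 positive cells, had spent 24 h in IL-33. So every eosinophil library, those of eosinophils alone included, came from IL-33 treated cells, and every ILC2 library from cells expanded in cytokines. The final 24 h, alone or together, ran without added cytokine, and the cells were then separated by flow sorting. The labels give neither the animals' age nor whether the 3 libraries of a group came from separate animals or cultures. The p-values below therefore reflect only how far these libraries scatter, which may be technical.

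Growth factors of this kind are small secreted or membrane-bound proteins that act on receptors of nearby cells. Amphiregulin (Areg), heparin-binding EGF-like growth factor (Hbegf), epiregulin (Ereg) and transforming growth factor alpha (Tgfa) are made as membrane precursors, cut loose by ADAM metalloproteases, and bind the EGF receptor on epithelium and stroma. TGF beta 1 is stored in a latent complex that has to be opened before it can signal. VEGF-A and VEGF-B act on vessels, PDGF-B on mesenchymal cells, CSF1 on macrophages, and IGF1 on many cell types. Amphiregulin is known as a repair factor of lung ILC2s, and eosinophils are known as a source of TGF beta 1.

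The sequences just before the start sites of Areg, Vegfa and Csf1 are shown because these genes had the largest changes in ILC2s other than Hbegf. Each is the 250 bases upstream of a RefSeq start site on GRCm38.p6, printed 5′ to 3′ on the gene's strand, with capitals marking motif matches. Areg lies on chromosome 5 (plus strand, 91139599 to 91148432), beside Ereg (91074622 to 91093646). Vegfa lies on the minus strand of chromosome 17 and Csf1 on the minus strand of chromosome 3.
Areg, chr5:91139349-91139598: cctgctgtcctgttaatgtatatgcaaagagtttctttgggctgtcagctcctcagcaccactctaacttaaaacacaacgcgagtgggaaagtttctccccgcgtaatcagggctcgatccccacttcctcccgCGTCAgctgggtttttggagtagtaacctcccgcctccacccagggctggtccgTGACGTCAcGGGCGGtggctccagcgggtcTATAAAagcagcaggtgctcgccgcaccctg
Vegfa, chr17:46032378-46032627: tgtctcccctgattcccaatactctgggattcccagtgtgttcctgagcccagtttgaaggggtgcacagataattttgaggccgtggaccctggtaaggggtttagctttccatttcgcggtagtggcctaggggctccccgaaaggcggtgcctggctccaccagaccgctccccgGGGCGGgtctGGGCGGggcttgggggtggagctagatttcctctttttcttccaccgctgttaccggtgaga
Csf1, chr3:107760470-107760719: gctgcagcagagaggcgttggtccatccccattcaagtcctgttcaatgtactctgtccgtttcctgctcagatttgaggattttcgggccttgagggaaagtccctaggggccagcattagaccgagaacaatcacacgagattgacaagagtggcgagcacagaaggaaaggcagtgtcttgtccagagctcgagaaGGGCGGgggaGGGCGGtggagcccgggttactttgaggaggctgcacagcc

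The windows were searched on both strands for 7 motifs. The full cAMP element was TGACGTCA and its shorter part TGACG, which the full element contains on each strand. The core of the hypoxia element was ACGTG. The E-box that contains that core was CACGTG. For AP-1 the letters were TGANTCA. The GC box was spelled GGGCGG, and the TATA box was searched as TATAAA.

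The Areg window held the short cAMP motif at 3 places, with first bases 115, 61 and 58 bases before the start. The pair nearest the start overlap and form the full element. Of 32851 RefSeq promoter windows of the same length, 17.8% held the short motif and 1.55% the full one. Areg also had 1 GC box, at -52, and 1 TATA box, at -31, which stood in 32.7% and 12.4% of windows. In the Vegfa window (GC boxes at -72 and -62) and the Csf1 window (GC boxes at -51 and -41) no other searched motif was present; AP-1 stood in 6.75% of all windows and the E-box in 6.02%. Another Vegfa start in RefSeq had the hypoxia core at -211, a motif in 16.6% of windows, the overlapping short cAMP motif at -209, and a GC box at -158. A match describes letters only, and its absence covers these windows only. RefSeq windows were counted for 7 of the 10 genes, not for Hbegf, Ereg or Pdgfb. Any window on chromosome 18, where Hbegf lies, was left out of that count.

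Library totals were 16769929 to 22928961 counts, so that 3 counts, the limit that a count of 0 allows, equalled 0.131 to 0.179 CPM (counts scaled to the size of the library). Levels are CPM with TMM scaling over all 12 libraries, and differences are log2 fold changes ± SE from edgeR, called at an adjusted p under 0.05. The defining markers followed the labels: Gata3 had 705 ± 15.7 and 747 ± 12.3 CPM in ILC2s with eosinophils and alone, against 0.315 ± 0.155 and 1.46 ± 0.708 CPM in eosinophils with ILC2s and alone (SD, n = 3 each). Siglecf had 0.257 ± 0.0842 and 0.228 ± 0.0489 CPM in the same ILC2 groups, against 1372 ± 12.0 and 1370 ± 23.2 CPM in the eosinophil groups. Ccr3 averaged 1.30 and 0.995 CPM in these ILC2 groups, against 2102 and 1565 CPM in eosinophils with ILC2s and alone. Prg2 averaged 0.0717 and 0.0567 CPM in ILC2s, against 388 and 403 CPM in eosinophils, in the same order. Epx, the eosinophil peroxidase, was low even in eosinophils, with 15.2 ± 1.41 CPM with ILC2s and 11.9 ± 0.108 CPM alone. Il7r was lower in ILC2s with eosinophils (239 ± 25.0 CPM) than in ILC2s alone (1395 ± 10.4 CPM). In eosinophils it had 4.41 ± 0.330 CPM with ILC2s and 4.64 ± 0.608 CPM alone. Of the longer ILC2 list, Il1rl1 (638 and 976 CPM) and Id2 (712 and 559 CPM) were also high in eosinophils with ILC2s and alone.

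In ILC2s, coculture raised Areg, Vegfa, Hbegf and Tgfb1 and lowered Csf1. Of the 7 growth factor genes with enough reads to test, 4 rose, 1 fell and 2 did not pass, while 72.4% of the 14438 genes tested in ILC2s were called, 36.8% higher and 35.6% lower. Most genes were thus called in ILC2s, and a call by itself marks nothing particular to the growth factors. The median log2 fold change was 0.53 over the 7 genes and 0.00 over all genes tested. Ereg, Tgfa and Igf1 had too few reads in ILC2s for the test.

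In eosinophils, coculture lowered Vegfa and Hbegf and raised Csf1 and Igf1. Of 6 genes tested, 2 rose, 2 fell and 2 did not pass, against a background of 24.9% of 13109 genes called, 11.4% higher and 13.5% lower. The median log2 fold change was -0.14 over the 6 genes and 0.00 over all genes. Areg, Ereg, Tgfa and Pdgfb were not tested in eosinophils.

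**Figure D1:**
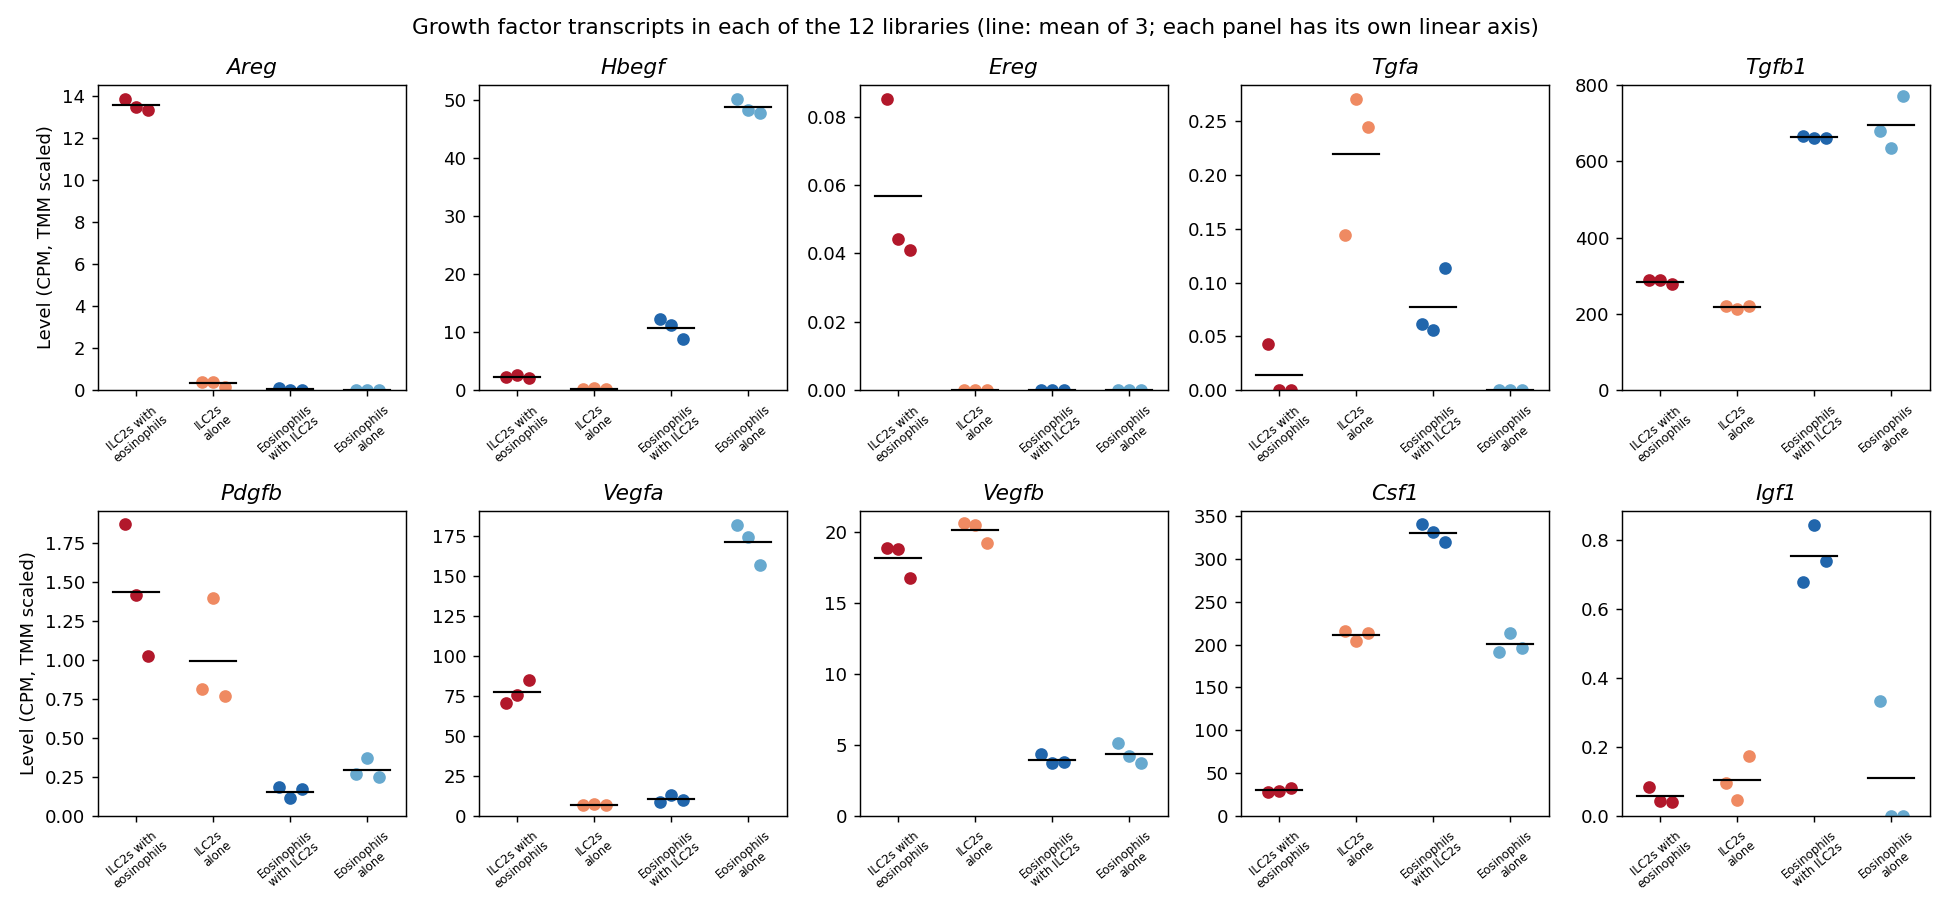
Level of each of the 10 growth factor genes in each library (vertical axis, CPM with TMM scaling, a linear axis of its own for each gene; points are single libraries, lines are means of n = 3). Vegfa stands at 70.8 to 85.2 CPM in ILC2s with eosinophils against 6.84 to 7.34 CPM in ILC2s alone, and at 8.77 to 12.98 CPM in eosinophils with ILC2s against 157 to 182 CPM in eosinophils alone.

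Areg had the largest rise of the 10 genes in ILC2s. It had 326, 305 and 326 counts in the ILC2 libraries with eosinophils, against 8, 9 and 5 counts in those of ILC2s alone, which is 13.9, 13.5 and 13.4 CPM against 0.384, 0.405 and 0.174 CPM. The cocultured libraries lay close together and far above all 3 libraries of ILC2s alone. The difference was 5.43 ± 0.21 on the log2 scale, or 43.2-fold (edgeR adjusted p = 1.3e-19). In bulk RNA, fewer cells expressing a gene and less of its RNA per cell cannot be told apart, here and below.

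Eosinophils had next to no Areg: 2, 0 and 0 counts with ILC2s, against 0, 0 and 0 counts alone. In the cocultured eosinophils the mean by library total was 0.0351 CPM, against 15.2 CPM in cocultured ILC2s. Over 154 ILC2 marker genes, the median was 0.223% of the cocultured ILC2 level in eosinophils with ILC2s and 0.291% in eosinophils alone. That median was not higher in coculture. The markers were picked for holding at most 1% of the cocultured ILC2 level in eosinophils alone. At 0.223% Areg would have 0.0338 CPM in the cocultured eosinophils. ILC2s alone had 22 Areg counts against 0 in eosinophils alone. The scaled ratio was 4.84 with a floor of 3 counts over the group in place of 0. Its 95% counting interval began lower, at 3.62. In coculture the ratio of ILC2s to eosinophils was 350 (95% counting interval 96.7 to 2897).

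Hbegf moved in opposite directions in the cell types. It had 2.34, 2.57 and 2.09 CPM in ILC2s with eosinophils, against 0.240, 0.3602 and 0.140 CPM in ILC2s alone. In eosinophils it had 12.2, 11.2 and 8.81 CPM with ILC2s, against 50.01, 48.2 and 47.8 CPM alone. In neither cell type did the groups overlap.

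The rise of Hbegf in ILC2s was 3.25 ± 0.37 on the log2 scale (edgeR adjusted p = 6.7e-09) and its fall in eosinophils was -2.21 ± 0.11, or 4.63-fold (edgeR adjusted p = 5.0e-09). The responses differed by 5.44 ± 0.30 (edgeR adjusted p = 3.0e-13), in a test of the difference that called 51.5% of 15745 genes, 26.8% higher and 24.8% lower. Of 8 growth factor genes in that test, Vegfa, Hbegf and Tgfb1 were called higher and Csf1 and Igf1 lower, a share close to that background. Since eosinophils held more Hbegf than ILC2s, eosinophil RNA in the sorted ILC2s bears on the rise. Over 183 eosinophil markers the median was 0.0880% of the cocultured eosinophil level in ILC2s with eosinophils and 0.0770% in ILC2s alone. At 0.0880% eosinophil RNA would give 0.00807 CPM of the 2.61 CPM of Hbegf that cocultured ILC2s had by library totals.

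The other EGF receptor ligands stayed near the limit of counting. Ereg, whose exons share 141 bases with a gene on the opposite strand, had 2, 1 and 1 counts in ILC2s with eosinophils, and 0 counts in the other 9 libraries. Tgfa had 1, 0 and 0 counts in ILC2s with eosinophils, against 3, 6 and 7 counts in ILC2s alone. In eosinophils Tgfa had 1, 1 and 2 counts with ILC2s, against 0, 0 and 0 counts alone. The Tgfa counts of the ILC2 groups did not overlap, and ILC2s alone were higher by a scaled ratio of 15.7 with a 95% counting interval of 2.44 to 659.

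Genes around the EGF ligands were read from lists of receptors, of release and activation, and of receptor feedback. Egfr itself, chosen after its values were seen, had 2.91 ± 0.533 CPM in ILC2s with eosinophils and 0.237 ± 0.130 CPM in ILC2s alone (SD, n = 3 each), a difference of 3.51 ± 0.36 (edgeR adjusted p = 6.4e-10). It stayed under 0.1 CPM on average in both eosinophil groups. Adam17, the main sheddase of these ligands and also named after its values were seen, did not pass in ILC2s (0.09 ± 0.05, edgeR adjusted p = 0.075) or in eosinophils (-0.17 ± 0.06, edgeR adjusted p = 0.066). In ILC2s it passed without library 2 of ILC2s with eosinophils (0.13, edgeR adjusted p = 0.037) or library 2 of ILC2s alone (0.12, edgeR adjusted p = 0.045). Rhbdf2, a partner needed for its maturation, fell in eosinophils to 157 ± 2.48 CPM with ILC2s, against 209 ± 5.49 CPM alone (-0.45 ± 0.05, edgeR adjusted p = 3.3e-05).

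Of 10 feedback and adaptor genes tested in ILC2s 3 rose and 3 fell, and of 9 tested in eosinophils 2 rose and 7 did not pass. Over all genes tested, 72.4% were called in ILC2s and 24.9% in eosinophils. The changes in ILC2s were small: the adaptors Sos1 (0.46) and Grb2 (0.41) rose, and Hgs (-0.16) and Cbl (-0.14), which sort and tag activated receptors for breakdown, fell. The Hgs call was lost without library 3 of ILC2s with eosinophils (edgeR adjusted p = 0.070), and the Cbl call in ILC2s with all 12 libraries in one fit (edgeR adjusted p = 0.14). In eosinophils Cbl rose by 0.55 ± 0.10 (edgeR adjusted p = 0.00076) and the adaptor Shc1 by 0.19 ± 0.05 (edgeR adjusted p = 0.022). The Shc1 call was lost without library 1 of eosinophils alone or any library of eosinophils with ILC2s (edgeR adjusted p = 0.057 to 0.081).

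Vegfa, the main vessel growth factor, showed the largest opposite changes of the 10 genes. It had 70.8, 75.7 and 85.2 CPM in ILC2s with eosinophils, against 6.86, 7.34 and 6.84 CPM in ILC2s alone. Eosinophils had 8.77, 12.98 and 10.1 CPM with ILC2s, against 182, 175 and 157 CPM alone. The groups were far apart in both cell types, so the higher cell type alone was the lower one in coculture.

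In ILC2s Vegfa rose by 3.45 ± 0.08 on the log2 scale, or 11.0-fold (edgeR adjusted p = 6.5e-25). In eosinophils it fell by 4.04 ± 0.12, or 16.4-fold (edgeR adjusted p = 2.8e-11). The responses differed by 7.47 ± 0.14 (edgeR adjusted p = 7.0e-22). ILC2s were below eosinophils by -4.60 when each was cultured alone (edgeR adjusted p = 5.5e-16) and above them by 2.85 in coculture (edgeR adjusted p = 1.5e-21). These cell type comparisons use the same libraries as the coculture comparisons.

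Vegfb, a relative of Vegfa, had 18.9, 18.7 and 16.7 CPM in ILC2s with eosinophils, against 20.6, 20.4 and 19.2 CPM in ILC2s alone. Those groups did not overlap, but the difference of -0.15 ± 0.08 did not pass (edgeR adjusted p = 0.095). In eosinophils it had 4.32, 3.71 and 3.81 CPM with ILC2s, against 5.14, 4.25 and 3.71 CPM alone, which overlap (-0.17 ± 0.20, edgeR adjusted p = 0.60). With library totals in place of TMM, Vegfb was called lower in ILC2s (-0.31, edgeR adjusted p = 0.0015), a scaling that moves the median of all genes there to -0.15.

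Of the other ligands of these families, 2 of 5 tested rose and 1 fell in ILC2s, and in eosinophils 1 of 4 fell and the others did not pass. The share called over all genes tested was 72.4% in ILC2s and 24.9% in eosinophils. Vegfc, a lymphatic growth factor, rose in ILC2s to 12.6 ± 0.538 CPM with eosinophils, against 7.28 ± 0.761 CPM alone (0.78 ± 0.11, edgeR adjusted p = 3.7e-07). Pgf, placental growth factor, fell in eosinophils to 0.741, 0.562 and 0.171 CPM with ILC2s, against 8.48, 7.57 and 9.03 CPM alone (-4.11 ± 0.31, edgeR adjusted p = 3.8e-07). Flt1, a receptor of VEGF-A, VEGF-B and Pgf named after its values were seen, was lower in eosinophils with ILC2s (0.624 ± 0.118 CPM) than in eosinophils alone (2.22 ± 1.69 CPM), by -1.84 ± 0.52 (edgeR adjusted p = 0.019). That call was lost without library 1 of eosinophils alone, which had 4.14 CPM against 1.60 and 0.928 CPM in the other libraries (-1.05, edgeR adjusted p = 0.16), without library 2 or 3 of eosinophils with ILC2s (edgeR adjusted p = 0.067 and 0.076), and in limma-voom (adjusted p = 0.058). The VEGF coreceptor Nrp1 fell in ILC2s to 21.9 ± 1.80 CPM with eosinophils, against 41.5 ± 3.89 CPM alone (-0.92 ± 0.08, edgeR adjusted p = 7.0e-12).

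**Figure D2:**
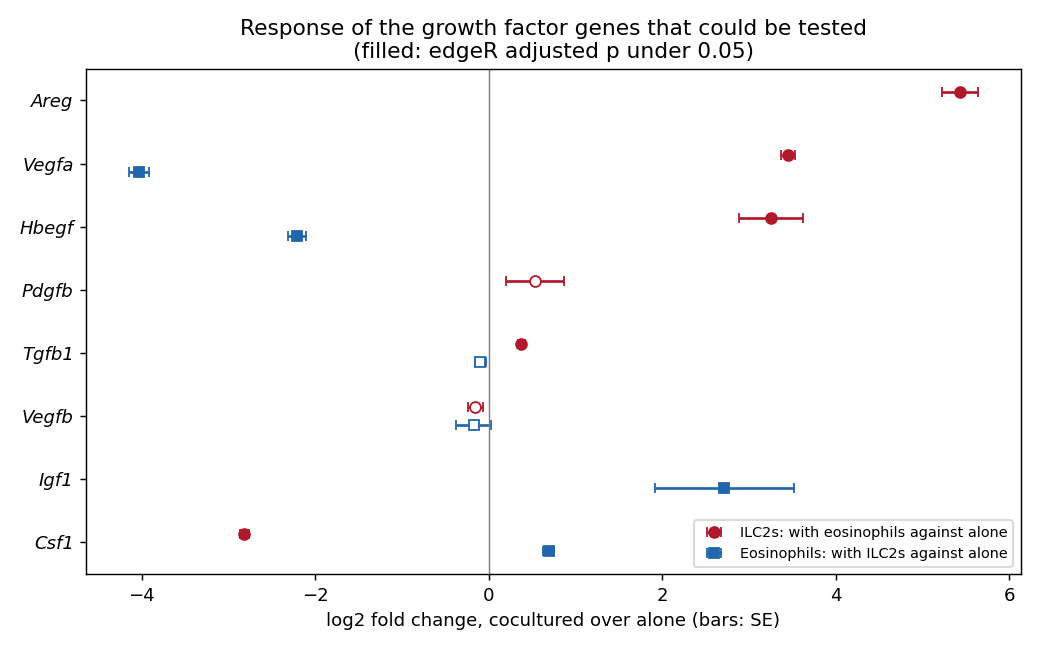
Log2 fold change of each tested growth factor gene in coculture over culture alone, with bars of ± 1 SE, for ILC2s and for eosinophils; filled points passed edgeR at an adjusted p under 0.05. Vegfa and Hbegf lie above 0 in ILC2s and below 0 in eosinophils, and Csf1 lies at -2.82 in ILC2s and 0.69 in eosinophils.

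Csf1, the growth factor of macrophages, fell in ILC2s and rose in eosinophils. It had 28.2, 29.0 and 33.02 CPM in ILC2s with eosinophils, against 215, 205 and 214 CPM in ILC2s alone. In eosinophils it had 341, 332 and 319 CPM with ILC2s, against 191, 214 and 196 CPM alone. The groups did not overlap in either cell type.

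The fall in ILC2s was -2.82 ± 0.05, or 7.06-fold (edgeR adjusted p = 2.3e-27), and the rise in eosinophils 0.69 ± 0.06, or 1.62-fold (edgeR adjusted p = 2.0e-06). Those responses differed by -3.53 ± 0.09 (edgeR adjusted p = 6.2e-20). Alone, ILC2s and eosinophils did not differ past the threshold (0.08 ± 0.06, edgeR adjusted p = 0.23). They did without library 2 of eosinophils alone (0.12, edgeR adjusted p = 0.038). They also did with upper quartile factors, at 0.32 (edgeR adjusted p = 0.00026), where the median of all genes moves to 0.26. With library totals they differed by 0.65, where that median moves to 0.60. In coculture ILC2s were lower by -3.47 (edgeR adjusted p = 6.6e-29).

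Csf1r, the receptor for CSF1, was named after its values were seen. It had 481 ± 17.3 CPM in eosinophils with ILC2s and 441 ± 28.6 CPM in eosinophils alone, a difference that did not pass (0.10 ± 0.06, edgeR adjusted p = 0.27). In ILC2s it averaged 0.369 and 0.154 CPM with eosinophils and alone. Because Csf1r is also a monocyte and macrophage gene, that marker list bears on it: 4 of its 14 genes reached 1 CPM in each eosinophil group, Cd163 had 0 counts, and C1qa, C1qb and C1qc averaged under 1 CPM. The summed level of the list was 890 to 924 CPM in eosinophils with ILC2s and 705 to 759 CPM in eosinophils alone. Of that sum, 765 CPM with ILC2s and 594 CPM alone came from Adgre4. Mpeg1 was also higher, at 95.03 CPM with ILC2s against 54.7 CPM alone. The other genes of the list that reached 1 CPM in eosinophils went the other way. Fcgr1 had 17.7 CPM with ILC2s against 34.9 CPM alone, and Ly6c2 had 23.1 against 49.4 CPM.

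Tgfb1 had the highest level per length of annotated exons of the 10 genes in every group. It had 290, 288 and 277 CPM in ILC2s with eosinophils, against 222, 213 and 220 CPM in ILC2s alone. Eosinophils had 666, 662 and 662 CPM with ILC2s, against 679, 636 and 773 CPM alone. The ILC2 groups were apart, and the eosinophil groups overlapped.

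The rise in ILC2s was small but larger than the spread, at 0.38 ± 0.04 or 1.30-fold (edgeR adjusted p = 5.5e-10). In eosinophils the difference of -0.10 ± 0.06 did not pass (edgeR adjusted p = 0.31), and the responses differed by 0.45 ± 0.08 (edgeR adjusted p = 6.2e-05). ILC2s held less Tgfb1 than eosinophils, by -1.66 alone (edgeR adjusted p = 5.3e-12) and -1.23 in coculture (edgeR adjusted p = 1.1e-20). Tgfb3, another TGF beta isoform named after its values were seen, rose in ILC2s to 4.59 ± 0.489 CPM with eosinophils, against 1.18 ± 0.496 CPM alone (1.91 ± 0.24, edgeR adjusted p = 3.3e-08).

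Of 17 release and activation genes tested in ILC2s, 7 rose, 3 fell and 7 did not pass, where 72.4% of all genes tested were called. Furin, a protease that cleaves the TGF beta precursor, rose to 1161 ± 6.92 CPM in ILC2s with eosinophils, against 246 ± 6.34 CPM in ILC2s alone (2.23 ± 0.04, edgeR adjusted p = 7.1e-28). Thbs1, thrombospondin 1, which can activate latent TGF beta, rose by 1.92 ± 0.10 to 21.7 ± 0.357 CPM with eosinophils, against 5.72 ± 0.536 CPM alone. The metalloproteases Adam19 (1.42 ± 0.04) and Adam9 (0.33 ± 0.05) were the other named rises of that list.

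In eosinophils 2 of 13 release and activation genes rose, 6 fell and 5 did not pass, where 24.9% of all genes tested were called. Furin fell to 997 ± 18.1 CPM with ILC2s, against 1593 ± 38.3 CPM alone (-0.71 ± 0.05, edgeR adjusted p = 1.7e-07). Nrros, a leukocyte protein that holds latent TGF beta 1, fell to 107 ± 3.72 CPM with ILC2s, against 173 ± 5.48 CPM alone (-0.72 ± 0.06, edgeR adjusted p = 6.3e-07). Thbs1 was lower with 12.6 ± 2.36 CPM with ILC2s, against 18.2 ± 3.51 CPM alone, in groups that overlap (-0.56 ± 0.16, edgeR adjusted p = 0.024). The Thbs1 call was lost without library 1 of eosinophils alone, or library 1 or 3 of eosinophils with ILC2s (edgeR adjusted p = 0.082 to 0.11). The ILC2 response exceeded the eosinophil response by 2.92 ± 0.07 for Furin and 2.45 ± 0.20 for Thbs1 (edgeR adjusted p = 1.5e-20 and 2.3e-10).

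Among 12 growth factor receptors tested in ILC2s 2 rose, 7 fell and 3 did not pass, with a median of -0.34 against 0.00 over all genes. Of all genes tested in ILC2s 72.4% were called, 36.8% higher and 35.6% lower, against 24.9% called in eosinophils. Tgfbr2, the TGF beta type II receptor, fell to 454 ± 19.9 CPM in ILC2s with eosinophils, against 859 ± 35.5 CPM in ILC2s alone (-0.93 ± 0.04, edgeR adjusted p = 3.1e-18). Tgfbr3, the coreceptor betaglycan and named after its values were seen, fell by 2.31 ± 0.41 (edgeR adjusted p = 1.3e-05). In eosinophils 2 of 12 receptors rose and 2 fell: the type I receptor Tgfbr1 rose to 131 ± 8.60 CPM with ILC2s, against 68.1 ± 5.61 CPM alone (0.91 ± 0.08, edgeR adjusted p = 1.2e-06), and Tgfbr2 was slightly lower (-0.22 ± 0.06, edgeR adjusted p = 0.015). That small Tgfbr2 call was lost without library 1 or 2 of eosinophils with ILC2s (edgeR adjusted p = 0.080 and 0.051) and with library totals (edgeR adjusted p = 0.053).

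Genes of TGF beta signalling and its known targets went both ways. In ILC2s 4 of 13 tested rose and 8 fell, with a median of -0.43, where 72.4% of all genes tested were called. The corepressor Tgif1 (-2.10 ± 0.13), the inhibitory Smad7 (-1.11 ± 0.07) and the shared Smad4 (-0.66 ± 0.05) fell, and the transcription inhibitor Id3 rose (1.90 ± 0.13). In eosinophils 5 of 13 rose and 4 fell, with a median of 0.11, where 24.9% of all genes tested were called. Id1 fell there to 67.4 ± 2.35 CPM with ILC2s, against 203 ± 21.3 CPM alone (-1.62 ± 0.07, edgeR adjusted p = 2.6e-09), while the corepressors Skil (0.75 ± 0.08) and Ski (0.63 ± 0.06) rose and Bhlhe40 fell (-0.55 ± 0.05).

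**Figure D3:**
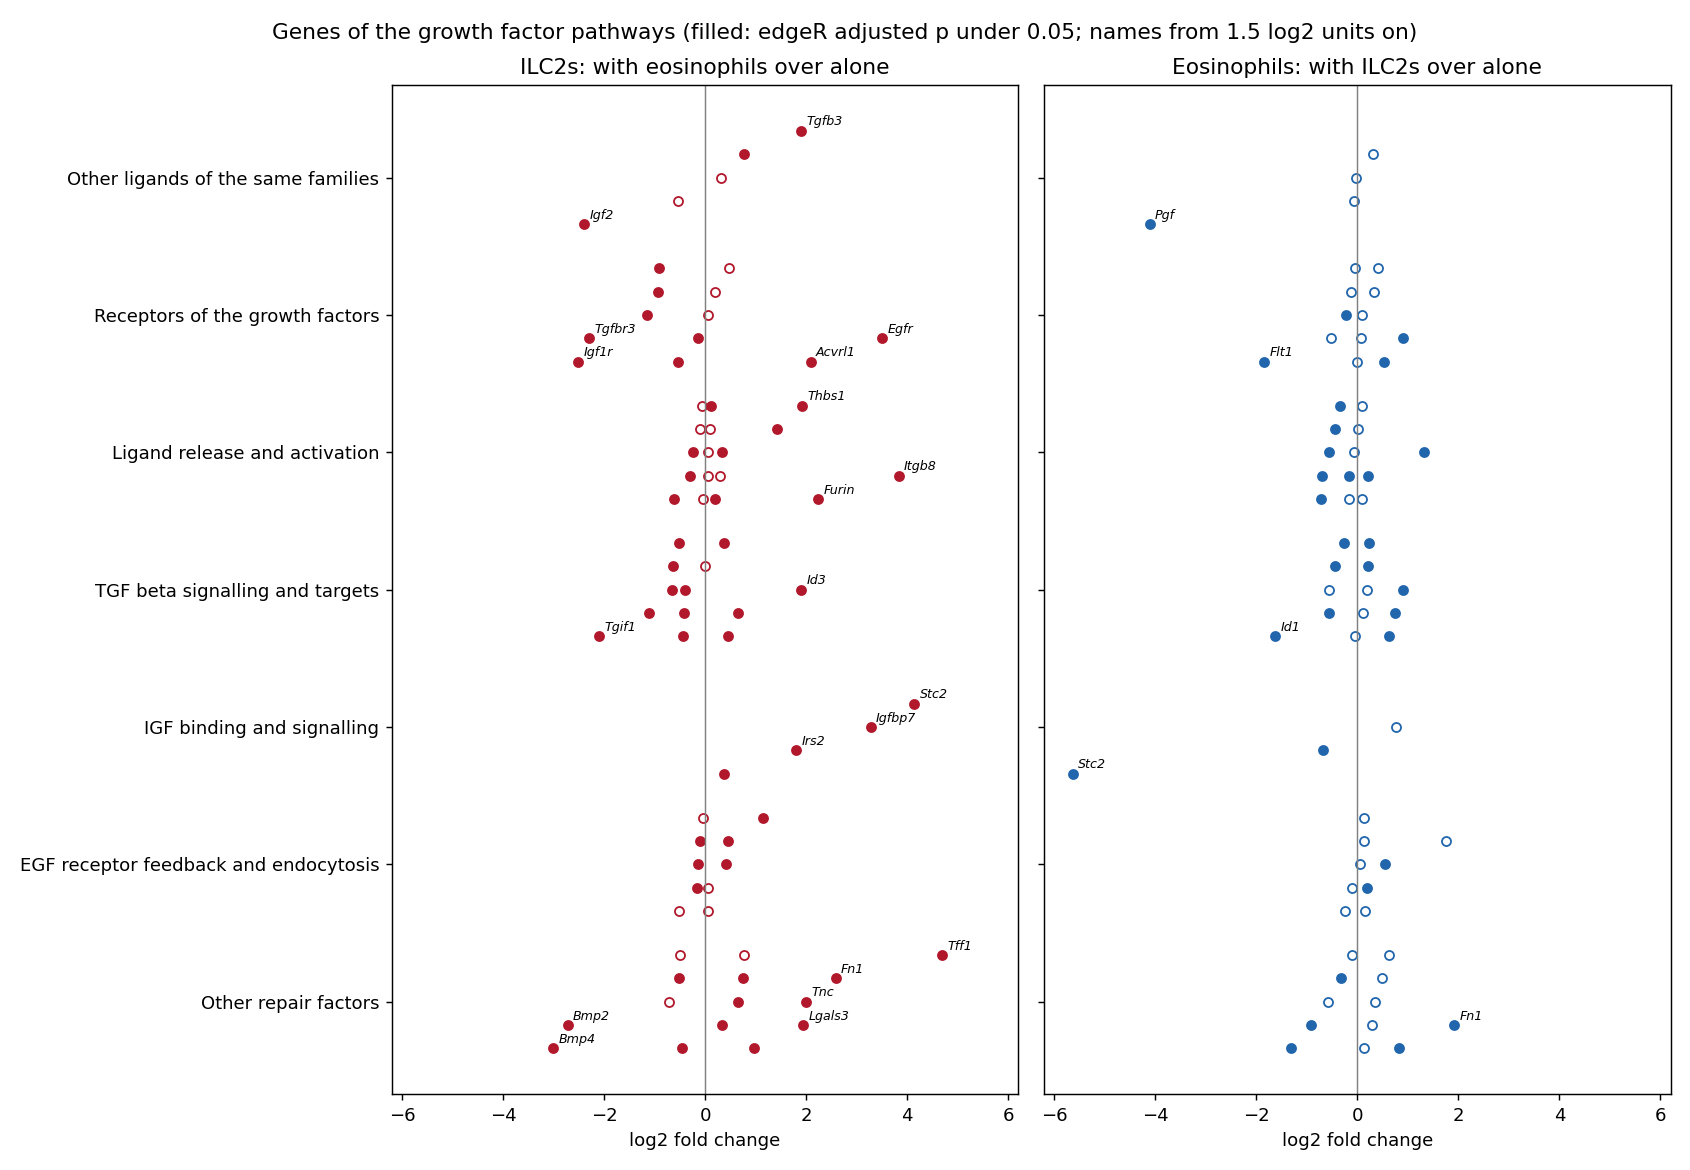
Log2 fold change in coculture over culture alone for every tested gene of the growth factor lists (1 row per list), for ILC2s and for eosinophils; filled points passed edgeR at an adjusted p under 0.05, and called genes at least 1.5 log2 units from 0 are named, low ones included. Stc2 lies at 4.14 in ILC2s and at -5.63 in eosinophils, and 7 of 12 tested receptors passed below 0 in ILC2s, where 35.6% of all genes tested did.

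Pdgfb, the B chain of platelet-derived growth factor, was a low ILC2 gene. It had 1.87, 1.42 and 1.03 CPM in ILC2s with eosinophils, against 0.815, 1.40 and 0.768 CPM in ILC2s alone. The groups overlapped and the difference did not pass (0.53 ± 0.33, edgeR adjusted p = 0.15), but without library 2 of ILC2s alone it was called at 0.85 (edgeR adjusted p = 0.041). Eosinophils had 8 counts in all with ILC2s and 14 counts alone. ILC2s held more Pdgfb than eosinophils, by 3.15 ± 0.49 in coculture (edgeR adjusted p = 9.2e-07) and 1.73 ± 0.47 alone (edgeR adjusted p = 0.0034).

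Igf1, insulin-like growth factor 1, was close to the limit of counting. Eosinophils had 11, 15 and 13 counts with ILC2s, against 5, 0 and 0 counts alone, so the groups did not overlap. The rise of 2.72 ± 0.80 passed (edgeR adjusted p = 0.023), with a scaled ratio of 7.17 and a 95% counting interval of 2.82 to 23.3. The call rests on few reads: leaving out library 2 or 3 of eosinophils alone, or any of the 3 libraries of eosinophils with ILC2s, gave adjusted p of 0.052 to 0.077 by edgeR. Without library 1 of eosinophils alone, the others of that group being at 0 counts, the fitted value was 6.67, which depends on the prior count. ILC2s had 2, 1 and 1 counts with eosinophils and 2, 1 and 5 counts alone. By library totals Igf1 had 0.644 CPM in eosinophils with ILC2s, of which ILC2 RNA at 0.223% would give 0.000141 CPM.

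The IGF receptor fell on the ILC2 side. Igf1r had 6.42, 6.38 and 6.77 CPM in ILC2s with eosinophils, against 37.1, 37.3 and 37.0 CPM in ILC2s alone, a fall of 5.72-fold (-2.52 ± 0.08, edgeR adjusted p = 5.5e-21). In eosinophils Igf1r had 296 ± 16.04 CPM with ILC2s and 276 ± 14.99 CPM alone, which did not pass (0.07 ± 0.06, edgeR adjusted p = 0.46). Igf2r, which clears IGF2, moved opposite ways, by -1.14 ± 0.04 in ILC2s and 0.52 ± 0.10 in eosinophils (edgeR adjusted p = 1.3e-19 and 0.0021).

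The 4 tested genes of IGF binding and signalling, Stc2, Igfbp7, Irs2 and Igfbp4, all passed above 0 in ILC2s, the last not under every setting. Their median was 2.54, and 36.8% of all genes tested in ILC2s were called higher. Stc2, stanniocalcin 2, an inhibitor of the protease that frees IGF from its binding proteins, had 234, 238 and 266 CPM in ILC2s with eosinophils, against 14.001, 14.6 and 13.02 CPM in ILC2s alone (4.14 ± 0.06, edgeR adjusted p = 7.7e-30). In eosinophils Stc2 had 0.741, 0.00 and 0.398 CPM with ILC2s, against 19.97, 19.5 and 15.5 CPM alone (-5.63 ± 0.36, edgeR adjusted p = 7.0e-08). The groups lay far apart in both cell types.

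Igfbp7, an IGF binding protein, rose in ILC2s to 6.66 ± 0.573 CPM with eosinophils, against 0.659 ± 0.494 CPM alone (3.28 ± 0.28, edgeR adjusted p = 2.0e-11). The receptor adaptor Irs2 rose in ILC2s by 1.81 ± 0.04 (edgeR adjusted p = 3.4e-24), and Igfbp4 by 0.38 ± 0.13 (edgeR adjusted p = 0.010). The Igfbp4 call was lost without library 3 of ILC2s alone (0.28, edgeR adjusted p = 0.089), without library 1 of ILC2s with eosinophils (0.21, edgeR adjusted p = 0.16) and with library totals (0.22, edgeR adjusted p = 0.12). In eosinophils 2 of 3 tested genes of that list fell, Stc2 and Irs2 (-0.68 ± 0.09, edgeR adjusted p = 6.0e-05), and Igfbp4 did not pass (0.77 ± 0.30, edgeR adjusted p = 0.084). Over all genes tested in eosinophils, 13.5% were called lower.

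Other repair factors were mixed. In ILC2s 8 of 15 tested rose, 4 fell and 3 did not pass, where 72.4% of all genes tested were called. Galectin 3 (Lgals3) had 110 ± 6.201 CPM in ILC2s with eosinophils, against 28.6 ± 1.46 CPM in ILC2s alone (1.93 ± 0.05, edgeR adjusted p = 8.4e-23), and Angptl4 (0.96), Fgf2 (0.75) and progranulin (Grn, 0.65) also rose. Bmp4 (-3.01 ± 0.29) and Bmp2 (-2.72 ± 0.31), bone morphogenetic proteins named after their values were seen, fell.

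In eosinophils 2 of 12 such factors rose, 3 fell and 7 did not pass, where 24.9% of all genes tested were called. Fibronectin (Fn1) rose to 8.21 ± 1.11 CPM with ILC2s, against 2.15 ± 0.576 CPM alone (1.91 ± 0.22, edgeR adjusted p = 1.8e-05), and Grn to 702 ± 44.96 CPM, against 388 ± 45.2 CPM alone (0.82 ± 0.08, edgeR adjusted p = 2.4e-06). Lgals3 fell (-0.33 ± 0.07, edgeR adjusted p = 0.0032). The chitinase-like Chil3 had 5.31, 6.18 and 5.40 CPM with ILC2s, against 17.4, 6.77 and 7.42 CPM alone (-0.92 ± 0.30, edgeR adjusted p = 0.036). Library 1 of eosinophils alone carried that difference: without it the value was -0.36 (edgeR adjusted p = 0.20). The Chil3 call was also lost without any 1 library of eosinophils with ILC2s (edgeR adjusted p = 0.061 to 0.13), in DESeq2 (adjusted p = 0.13) and in limma-voom (adjusted p = 0.082). Hgf, hepatocyte growth factor and named after its values were seen, had 64.97 ± 7.00 CPM with ILC2s and 49.6 ± 11.1 CPM alone, which did not pass (0.36 ± 0.13, edgeR adjusted p = 0.071). It did pass without library 2 of eosinophils alone (0.54, edgeR adjusted p = 0.00033) and in DESeq2 (0.36, adjusted p = 0.035).

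Between the cell types, 2 of 6 tested growth factor genes were higher in ILC2s alone, 3 were lower and 1 did not pass, where 80.7% of 14525 genes were called, 40.8% higher and 39.9% lower. In coculture 4 of 8 were higher in ILC2s and 4 lower, where 84.0% of 14634 genes were called, 43.6% higher and 40.5% lower. Vegfb and Pdgfb were higher in ILC2s in both comparisons. Vegfb stood above eosinophils by 2.21 alone (edgeR adjusted p = 6.6e-10) and by 2.19 in coculture (edgeR adjusted p = 1.4e-15). Hbegf was lower in ILC2s by -7.63 alone (edgeR adjusted p = 4.1e-15) and by -2.21 in coculture (edgeR adjusted p = 9.2e-13). The former rests on 17 counts in ILC2s alone.

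Levels can be set against each other between genes only per length. The length was that of all annotated exons of a gene, merged over its transcripts, which need not be the isoform expressed. Orders that lie close, such as that of Tgfb1 and Csf1 in ILC2s alone, may depend on it, as may the percentages. In CPM per kilobase of exon, ILC2s with eosinophils had Tgfb1 at 56.5 ± 1.36, Vegfa at 18.0 ± 1.71, Vegfb at 11.3 ± 0.748, Areg at 11.2 ± 0.205 and Csf1 at 5.69 ± 0.491, with Vegfb and Areg overlapping. In ILC2s alone the order was Tgfb1 at 43.3 ± 0.887, Csf1 at 39.997 ± 1.11, Vegfb at 12.5 ± 0.484 and Vegfa at 1.64 ± 0.0661. The summed level of the 10 genes was 103.6 ± 0.389 in ILC2s with eosinophils and 98.1 ± 1.78 in ILC2s alone. Of that sum, Csf1 made up 5.50% with eosinophils and 40.8% alone, Vegfa 17.4% with eosinophils and 1.67% alone, and Areg 10.8% with eosinophils and 0.269% alone.

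In eosinophils with ILC2s the order per kilobase was Tgfb1 at 131.6 ± 0.485 and Csf1 at 62.6 ± 2.05, followed by Vegfa, Vegfb and Hbegf at 2.48 ± 0.502, 2.46 ± 0.205 and 2.22 ± 0.358, whose ranges overlap. Eosinophils alone had Tgfb1 at 138 ± 13.9, Vegfa at 39.97 ± 3.01, Csf1 at 37.9 ± 2.29 and Hbegf at 10.1 ± 0.247, with Vegfa and Csf1 overlapping. Vegfa made up 1.23% of the summed level in eosinophils with ILC2s and 17.5% in eosinophils alone. The sums were 201.5 ± 2.86 with ILC2s and 229 ± 9.78 alone.

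**Figure D4:**
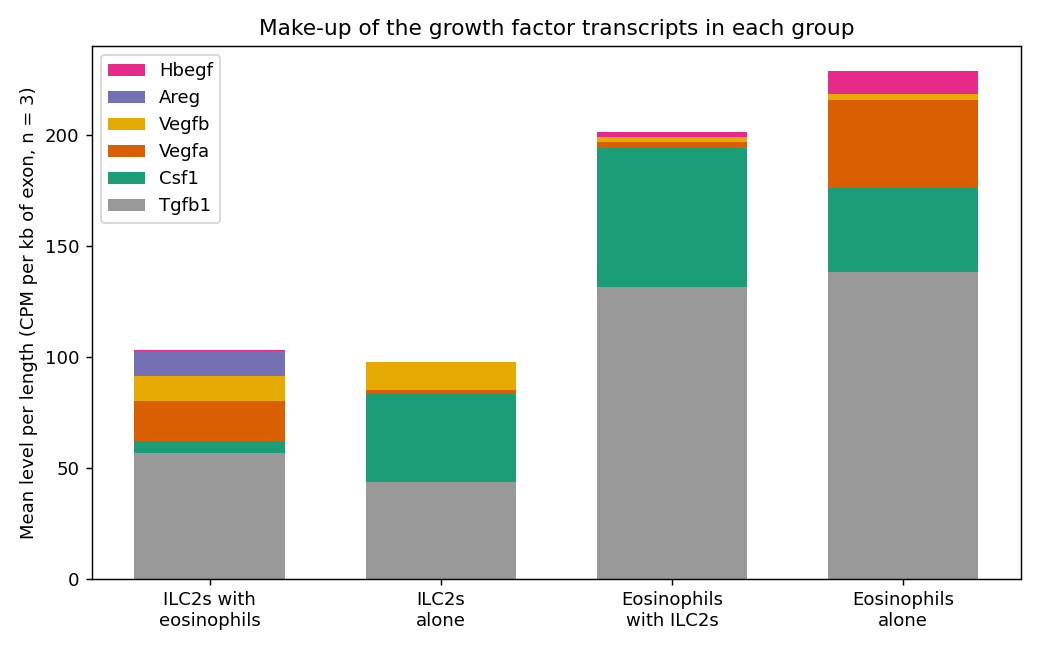
Makeup of the growth factor RNA in each group, as mean CPM per kilobase of exon stacked over the 6 genes with the most (vertical axis, n = 3 libraries per group). The summed level of all 10 genes is 103.6 in ILC2s with eosinophils and 98.1 in ILC2s alone, and 201.5 in eosinophils with ILC2s and 229 in eosinophils alone.

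For each of the 6 genes that reached 10 CPM in some group, the genes with the most alike pattern over the 12 libraries were sought among 10022 genes, by the root mean square difference of centred log2(CPM + 1). The nearest were Fads2 (0.111) and Exo1 (0.128) for Areg, Ifitm1 (0.316) and Iqcg (0.344) for Hbegf, and Plekhj1 (0.0664) and Map2k3 (0.0707) for Tgfb1. For Vegfa they were Aldoc (0.409) and Egln3 (0.430), for Vegfb B130055M24Rik (0.122) and Piezo1 (0.129), and for Csf1 Kctd12 (0.202) and Carns1 (0.294). Egln3, for example, had 385 ± 17.9 CPM in ILC2s with eosinophils and 50.3 ± 0.793 CPM in ILC2s alone, and 43.9 ± 0.935 CPM in eosinophils with ILC2s and 512 ± 2.22 CPM in eosinophils alone. These distances describe levels across 4 groups that share libraries, depth and scaling.

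RNA of the other cell in the sorted libraries was measured from marker genes. These were picked for holding at most 1% of the partner's level in the cell cultured alone. In ILC2s the median share of the eosinophil level over 11 markers was 0.0451% ± 0.0108 with eosinophils and 0.0315% ± 0.0191 alone (SD, n = 3 each, exact two-sided permutation p = 0.40). The summed eosinophil list did rise in ILC2s, to 16.7 to 18.8 CPM with eosinophils, against 2.72 to 3.29 CPM alone. Csf2rb accounted for most of that, at 14.8 CPM with eosinophils and 1.17 CPM alone. In eosinophils the share of the ILC2 level over 7 markers was 0.0666% ± 0.0207 with ILC2s and 0.128% ± 0.0300 alone (exact two-sided permutation p = 0.10, the smallest that 3 against 3 can give). At the 0.0880% of the 183 markers, eosinophil RNA would give 0.00798 CPM of the 86.2 CPM of Vegfa that cocultured ILC2s had by library totals.

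Marker lists of other blood and lung cells moved with coculture in both cell types. In eosinophils the summed level of the basophil list moved down and that of the neutrophil list up. The basophil and mast cell list summed to 115 to 128 CPM with ILC2s and 231 to 262 CPM alone, with 6 of 11 genes at 1 CPM or more in both groups, most of it Gata2, and with Prss34, Tpsb2 and Mcpt4 at 0 counts with ILC2s. The neutrophil list summed to 707 to 802 CPM with ILC2s and 112 to 150 CPM alone, with 6 of 10 genes at 1 CPM or more in both groups. Nearly all of it was Retnlg, with 752 CPM with ILC2s and 115 CPM alone, and Mmp8 was also higher (2.24 against 0.483 CPM). Other genes of that list went the other way: S100a8 had 1.32 CPM with ILC2s against 4.51 CPM alone, and S100a9 had 2.39 against 6.08 CPM. The platelet list, of interest for Tgfb1 and Pdgfb, summed to 908 to 934 CPM with ILC2s and 831 to 902 CPM alone, from Itga2b and Itgb3, while its defining genes Pf4 and Ppbp averaged under 1 CPM. The B cell list, mostly Ighm, summed to 252 to 283 CPM with ILC2s and 202 to 244 CPM alone, with 3 of 7 genes at 1 CPM or more in both groups. The epithelial, endothelial and stromal list, mostly Pecam1, summed to 414 to 448 CPM with ILC2s and 366 to 387 CPM alone, with 3 of 12 genes at 1 CPM or more and Sftpc at 0 counts in both groups. In ILC2s the basophil and mast cell list, nearly all Kit, summed to 50.9 to 62.4 CPM with eosinophils and 130 to 142 CPM alone, with 1 of 11 genes at 1 CPM or more in both groups and Tpsb2 and Mcpt4 at 0 counts. The B cell list, mostly Ighm, summed to 52.1 to 59.5 CPM in ILC2s with eosinophils, 2 of 7 genes at 1 CPM or more and Ms4a1 at 0 counts, and to 126 to 139 CPM in ILC2s alone, 3 of 7 genes. The epithelial, endothelial and stromal list, mostly Pecam1, summed to 104 to 117 CPM in ILC2s with eosinophils and 154 to 158 CPM in ILC2s alone, with 3 of 12 genes at 1 CPM or more and Sftpc at 0 counts in both. The neutrophil list was low, at 1.82 to 5.78 CPM in ILC2s with eosinophils and 0.140 to 0.495 CPM in ILC2s alone, with 171 counts of Mpo against 3 and S100a8 and S100a9 at 0 counts in both. The platelet list, nearly all Itgb3, summed to 547 to 570 CPM in ILC2s with eosinophils and 462 to 482 CPM in ILC2s alone, with 3 of 12 genes at 1 CPM or more and Pf4 at 0 counts in both. The macrophage and monocyte list stayed at 2.75 to 3.53 CPM in ILC2s with eosinophils, 1 of 14 genes at 1 CPM or more, and at 1.04 to 1.74 CPM in ILC2s alone, 0 of 14 genes, with Marco at 0 counts in both. The T cell list in ILC2s summed to 147 to 159 CPM with eosinophils, 6 of 10 genes at 1 CPM or more, and to 164 to 177 CPM alone, 5 of 10 genes. The part of these other cells in the changes of the growth factor genes was not tested.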

How the data were processed

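The authors deposited raw counts, a whole number per gene and library, for 12 libraries in 4 groups. Build mm10, STAR 2.5.2b, Trimmomatic 0.36, bcl2fastq 2.17 and featureCounts with Subread 1.5.2 appear in the submitters' processing notes. Strandedness, annotation version and the handling of reads with several positions are not given in these sources, so reads of overlapping genes on opposite strands (as for Ereg and Tgfa) cannot be told apart. Symbols, positions and exon lengths came from GENCODE M21 on the same build, for 49056 of 49315 identifiers.

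Counts were fitted with edgeR 4.0.16 in R 4.3.3 (filterByExpr, TMM, quasi-likelihood F test, no covariates), with Benjamini-Hochberg adjustment over all genes tested. Coculture and cell type comparisons used the 6 libraries concerned. The difference of responses, (ILC2s with eosinophils minus ILC2s alone) minus (eosinophils with ILC2s minus eosinophils alone), used all 12. The standard error was the fold change's size over the square root of F. Low counts were compared by ratios scaled by library size and TMM, with exact 95% intervals that cover counting error only. The scripts were tested on simulated data. Over the comparisons 5.03 to 7.65% of the simulated calls were false. Of 1.5-fold changes 54.7 to 74.2% were recovered, and of 4-fold changes 84.5 to 100%. Changes smaller than 1.5-fold were not simulated.

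Members, lists and tests were chosen with earlier results of these data known. Of each list, up to 4 called genes with the largest changes and a mean of at least 5 CPM in the higher group were named per coculture comparison, besides the 10 members, 6 defining markers and the nearest pair of genes per member; other genes were named after their values were seen. Partner RNA was the median, over marker genes, of the level relative to the partner cell, compared by an exact permutation test. Listed markers had at least 10 CPM by library totals in the cocultured partner, and the wider sets at least 50 CPM. All had at most 1% of that level in the cell alone. The groups cultured alone thus entered both the choice of markers and the comparison. Alternatives were DESeq2 1.42.0, limma-voom (limma 3.58.1), other scalings, other low-count filters, a fit of all libraries, a replicate block and leaving out each library. No pair of replicates was a duplicate (chi-square per degree of freedom 2.57 to 19.5). A gene of the TGF beta list is not reported here.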

Additional observations from a re-analysis of the deposited data

Results flagged for a closer look

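The ILC2 and eosinophil responses to coculture differed, by the interaction test in edgeR, for 5 of the 8 growth factor genes it could test, while it called 51.5% of all 15745 genes. The log2 difference (ILC2 response minus eosinophil response) was 7.47 for Vegfa, 5.44 for Hbegf, 0.45 for Tgfb1, -3.53 for Csf1 and -3.65 for Igf1 (edgeR adjusted p = 7.0e-22, 3.0e-13, 6.2e-05, 6.2e-20 and 0.020). The same test also called named list genes without opposite moves, such as Igf1r (-2.61) and Adam19 (1.31). Given below are only named list genes called higher in 1 cell type and lower in the other. A called difference for these is close to fixed in advance, since it uses the same libraries. Positive differences were 9.76 for Stc2, 2.92 for Furin, 2.46 for Irs2, 2.45 for Thbs1, 2.24 for Lgals3, 1.18 for Bhlhe40, 0.90 for Nrros and 0.66 for Adam9. Negative differences were -3.03 for Tgif1, -1.69 for Igf2r, -1.29 for Ski, -1.20 for Skil, -1.08 for Tgfbr1 and -0.72 for Cbl. The Igf1 difference rests on 4 and 8 counts in ILC2s with eosinophils and alone, too few for a test within ILC2s; it was -7.86 to -3.02 over the settings tried, farthest from 0 without library 1 of eosinophils alone, and its call was lost without library 3 of ILC2s with eosinophils or of ILC2s alone (edgeR adjusted p = 0.051 and 0.14). The Thbs1 fall in eosinophils was itself not called without some single libraries. For Areg the difference of 2.58 ± 9.51 did not pass (edgeR adjusted p = 0.85), with eosinophils at 0 to 2 counts per library.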

How the results depend on the processing

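Most results on the 10 genes kept their direction and their side of the threshold under DESeq2, limma-voom, other scalings and filters, and with single libraries left out; the exceptions follow. Genes called higher in eosinophils numbered 1493, with 2276 when all 12 libraries were fitted together and 948 to 1604 with 1 library left out, the lowest without library 3 of eosinophils with ILC2s. Growth factor genes called higher in eosinophils were 2, with 1 when at least 1 CPM in at least 3 libraries was asked for and 1 to 2 with 1 library left out. In ILC2s 1 was called lower, with 2 under library totals, no low-count filter or upper quartile factors. Between the cell types alone 2 were higher in ILC2s, with 1 under the 1 CPM filter and 4 with no filter. There were 3 with library totals, with upper quartile factors, with all 12 libraries in one fit, or without library 2 of eosinophils alone. Genes lower in ILC2s numbered 5796, with 3664 under library totals. The difference of responses had 2 called lower, with 1 under the 1 CPM filter and 1 to 2 with 1 library left out (1 without library 3 of ILC2s with eosinophils or of ILC2s alone).

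The partner RNA share was 0.0880% in ILC2s and 0.223% in eosinophils with the wider marker sets. Values near 0 changed sign. The Vegfb difference of responses was 0.0021 under the 1 CPM filter and -0.14 to 0.10 with 1 library left out, Erbb3 in eosinophils was -0.25 to 0.0073 with 1 library left out, and Adam17 in ILC2s was -0.064 under library totals. Areg's difference of responses was called by DESeq2 (3.71, adjusted p = 0.042) and by limma-voom (4.80, adjusted p = 0.0002). With library totals the all-gene median was 0.60 between cell types alone and 0.45 in coculture. The share of calls that were higher was 58.0% in place of 45.7% in eosinophils, 70.1% in place of 50.5% between cell types alone, 65.8% in place of 51.8% in coculture, and 39.6% in place of 51.9% for the difference.

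Whether replicate numbers pair the libraries was not settled. Same-numbered deviations correlated at 0.042, 0.374 and 0.114 in eosinophils, and at -0.098 to 0.077 elsewhere. Between the eosinophil groups the best match had the same number for replicates 2 and 3, but not for replicate 1. With the replicate block, genes called higher in eosinophils were 2029, against 1493 without it, and lower 2139, against 1771. The growth factor genes kept the counts 2 and 2. No result here separates cell number from RNA per cell. Ereg, Tgfa and Igf1 lie near the counting limit, and so do Areg and Hbegf in ILC2s alone.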
